A study of Mus musculus with 6 samples.

Results

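The Hox genes are the 39 mouse protein-coding genes of the Hoxa, Hoxb, Hoxc and Hoxd clusters, and they were taken here from 55536 annotated genes by their symbols, a cluster letter followed by a number. The Hoxa cluster holds 11 of them, Hoxb 10, Hoxc 9 and Hoxd 9. RNA levels came from 6 samples, 3 control and 3 cKO, of satellite cells, which are the stem cells of skeletal muscle. Control mice were Pax7CreErt2;Hira fl/+ and cKO mice were Pax7CreErt2;Hira fl/fl, both on C57BL/6J; the sample labels call the controls WT. Both groups carried the tamoxifen-inducible Cre under Pax7, a gene of satellite cells, so recombination was directed at those cells and the controls kept 1 intact Hira allele. The mice were males of 8 to 12 weeks and received tamoxifen in the diet for 2 weeks. Muscle was injured, with the Tibialis anterior of the hindlimb as the study's injury site, the cells were sorted 5 days later by surface markers that retain CD34+ ITGA7+ cells and leave out CD45+, TER119+ and SCA1+ cells, and they were then grown for 48 h in high serum. The study calls the 3 samples of each group independent RNA samples. The sources do not say whether each sample came from a separate mouse, so p-values measure the spread between these samples, which may be technical.

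Hox genes encode homeodomain transcription factors that give cells along the body and limb axes their positional identity. Within a cluster the genes lie in the order of their numbers, and members with the same number in different clusters form a paralog group. Low numbers act toward the head and high numbers toward the tail and the ends of the limbs. Adult limb cells, satellite cells among them, keep part of this code. Polycomb proteins hold Hox clusters silent where they are not used, and trithorax proteins of the MLL family hold them active. HIRA, the protein targeted in cKO, is a chaperone of histone variant H3.3. The comparison asked which clusters and paralog groups these cells expressed and whether they differed between cKO and control.

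Each library held 47944477 to 63323577 counts on genes. Counts of Hira were 375, 348 and 341 in control against 161, 293 and 272 in cKO, a log2 fold change of -0.43 (SE 0.12, edgeR quasi-likelihood adjusted p = 0.0237). Without control replicate 1 that adjusted p was 0.104. Counts over the whole gene thus remained in every cKO library, and they do not show by themselves how complete the deletion was. For satellite cells of these genotypes, the study reported a sharp decrease of Hira by RT-qPCR and no detected HIRA protein by immunostaining. Markers of other cell types moved with genotype, counted here at an edgeR quasi-likelihood adjusted p under 0.05. Of all 22404 tested genes, 9.38% were higher in cKO and 6.46% were lower at that threshold. All 10 macrophage markers rose, and their summed level was 133 to 137 CPM (counts scaled to a library of 1e+06 counts) in control and 281 to 331 CPM in cKO. Of 8 tested fibroblast markers 5 rose and none fell, with summed levels of 558 to 580 CPM in control and 843 to 942 CPM in cKO; Tcf21 had 1 count in a single cKO library. Of 10 endothelial markers 5 rose, or 3 by DESeq2 (18.1 to 20.6 CPM against 28.4 to 34.1 CPM), and of 7 tested smooth muscle and pericyte markers 5 rose and 2 fell (377 to 383 CPM against 436 to 494 CPM), with Kcnj8 at no more than 3 counts in any library. Of 6 tested Schwann and glial markers 1 rose and 1 fell (238 to 247 CPM against 223 to 231 CPM). Of 9 tested satellite cell and myoblast markers, 7 fell (7100 to 7230 CPM against 6320 to 6780 CPM), and Myog, a factor of differentiating muscle, was the most expressed of that list per kb of exon. The part of these shifts in the Hox values below was not tested.

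Paralogs of a group are alike, so the sequence that separates them is shown for paralog group 9. The lines give the 75-base stretch (the length of a read) of the Hoxc9 coding sequence for which the nearest stretches of the other 3 paralogs differ least in total, 5′ to 3′ on the gene's strand, from GENCODE M21 transcripts on GRCm38. Capitals mark bases that differ from Hoxc9.
Hoxc9: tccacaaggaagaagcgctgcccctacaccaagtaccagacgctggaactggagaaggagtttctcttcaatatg
Hoxb9: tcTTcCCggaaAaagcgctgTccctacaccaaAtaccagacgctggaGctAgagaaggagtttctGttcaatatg
Hoxd9: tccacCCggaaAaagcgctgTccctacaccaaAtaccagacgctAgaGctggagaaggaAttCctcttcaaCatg
Hoxa9: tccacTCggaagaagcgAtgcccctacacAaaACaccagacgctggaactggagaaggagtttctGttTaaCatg
These stretches lie in coding exons at chr15:102983927-102984001 (Hoxc9, + strand), chr11:96274656-96274730 (Hoxb9, + strand), chr2:74699212-74699286 (Hoxd9, + strand) and chr6:52224376-52224450 (Hoxa9, - strand). Hoxb9 and Hoxd9 differed from Hoxc9 at 10 of the 75 bases and Hoxa9 at 9. Across all members, the longest identical run between transcripts of 2 Hox genes that do not overlap was 52 bases, between Hoxa6 and Hoxb4, which is shorter than a read. Some members do overlap other genes in the genome, and the larger shared parts are given with the results.

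Expression was concentrated in 2 of the 4 clusters. All 11 Hoxa genes and all 9 Hoxc genes passed the filter on low counts (edgeR's filterByExpr) and were tested, against 3 of 10 Hoxb genes and 2 of 9 Hoxd genes. In control samples the Hoxa genes summed to 115.7 ± 1.13 CPM and the Hoxc genes to 84.8 ± 0.98 CPM (SD, n = 3). The Hoxb genes summed to 1.08 ± 0.089 CPM and the Hoxd genes to 4.48 ± 0.49 CPM (SD, n = 3). Hoxa thus held 56.2% of all Hox counts in control samples, Hoxc 41.1%, Hoxd 2.17% and Hoxb 0.523%. Of the 14 members that were not tested, 5 had no more than 3 counts in any library (Hoxb1, Hoxb5, Hoxb13, Hoxd1 and Hoxd12). The other 9 exceeded 3 counts in at least 1 library, and Hoxd4 was the highest of them at 6 to 17 counts.

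**Figure D1:**
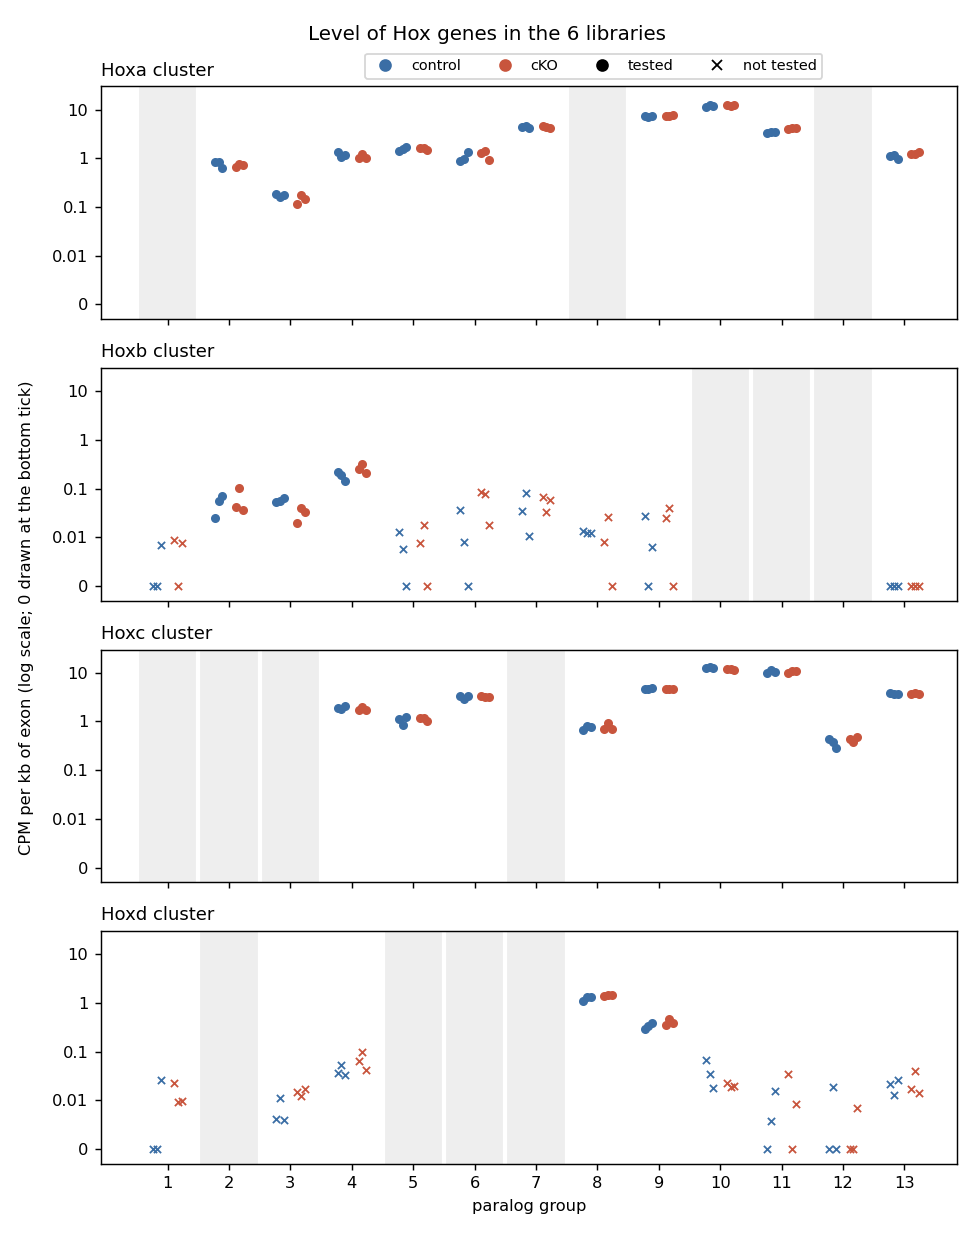
Level of Hox genes (CPM per kb of exon, log scale, 0 drawn at the bottom tick) by paralog group, 1 panel per cluster, with 1 point per library. Circles mark tested genes, crosses the 14 that were not tested, and grey columns groups with no gene shown for that cluster. Hoxc10, Hoxa10 and Hoxc11 are the highest points in both genotypes, and Hoxa9 is the next below them.

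Levels of different genes were compared as CPM per kb of exon, and the 5 most expressed, Hoxc10, Hoxa10, Hoxc11, Hoxa9 and Hoxc9, belong to paralog groups 9 to 11. The order of levels depends on the exon lengths used. In CPM without that division, the control means were 41.3 for Hoxa9, 38.9 for Hoxa10, 24.2 for Hoxc10 and 21.5 for Hoxc11. Hoxa7, of paralog group 7, came next at 12.6, above Hoxc9 at 11.4. By that measure the 5 highest genes were thus not all of groups 9 to 11. Hoxc10 had 12.3, 13.3 and 12.4 CPM per kb in the control samples and 11.7, 12.2 and 11.6 CPM per kb in the cKO samples. Hoxa10 had 11.4, 12.3 and 12 CPM per kb in control and 12.7, 12.1 and 12.5 CPM per kb in cKO. The ranges of these 2 genes overlapped over the 6 libraries, so their order is not set. Both pattern the lumbar spine and the hindlimb in development. Hoxc11 followed at 10.6 ± 0.616 CPM per kb in control and 10.5 ± 0.391 in cKO, and Hoxa9, a gene also known from blood stem cells, at 7.41 ± 0.172 and 7.56 ± 0.239 CPM per kb (SD, n = 3 per group). Then came Hoxc9 (4.70 ± 0.0665 and 4.66 ± 0.0688), Hoxa7 (4.38 ± 0.196 and 4.41 ± 0.197) and Hoxc13 (3.75 ± 0.112 and 3.72 ± 0.114), all as CPM per kb in control and in cKO. From Hoxa10 down to Hoxc13 each gene's lowest library lay above the next gene's highest. Hoxc13, Hoxa11 (3.40 ± 0.0933 and 4.06 ± 0.121) and Hoxc6 (3.19 ± 0.231 and 3.26 ± 0.095) overlapped with their neighbours in this order, and every library of Hoxc6 lay above those of Hoxc4, the next gene given here.

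Genes toward the head end of the Hoxa and Hoxc clusters were lower but passed the filter. Hoxc4 had 1.92 ± 0.12 CPM per kb in control and 1.79 ± 0.151 in cKO, and Hoxa5 had 1.54 ± 0.172 and 1.57 ± 0.0669. From Hoxc4 down to Hoxa2 every gene overlapped with its neighbour in the order of levels, so the order within this middle tier is not set. It also held Hoxd8 (1.25 ± 0.141 and 1.46 ± 0.033), Hoxa13 (1.08 ± 0.118 and 1.27 ± 0.0811), Hoxa6 (1.06 ± 0.237 and 1.22 ± 0.278), Hoxa4 (1.17 ± 0.141 and 1.09 ± 0.105), Hoxc5 (1.07 ± 0.195 and 1.13 ± 0.103) and Hoxc8 (0.749 ± 0.0704 and 0.774 ± 0.131), again as CPM per kb in control and in cKO. Hoxa2, which patterns the second branchial arch, was at 0.774 ± 0.115 and 0.715 ± 0.0567 CPM per kb. The lowest Hoxa gene was Hoxa3 at 0.175 ± 0.0113 and 0.147 ± 0.0327 CPM per kb, and the lowest Hoxc gene was Hoxc12 at 0.371 ± 0.0814 and 0.43 ± 0.0477 CPM per kb. Hoxb4 was at 0.186 ± 0.0375 and 0.261 ± 0.0573 CPM per kb, and Hoxc12, Hoxd9, Hoxb4 and Hoxa3 overlapped with their neighbours in level. Hoxb2 (0.0499 ± 0.0227 and 0.0599 ± 0.0364 CPM per kb) and Hoxb3 (0.0583 ± 0.00597 and 0.031 ± 0.0103 CPM per kb) were the lowest of the tested genes and overlapped with each other.

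Summed over clusters, paralog group 10 had 24.6 ± 0.922 CPM per kb in control and 24.3 ± 0.14 in cKO, group 11 had 14.1 ± 0.68 and 14.5 ± 0.494, and group 9 had 12.5 ± 0.253 and 12.6 ± 0.208 (SD, n = 3 per group). Group 13, whose members pattern the distal limb and the hindgut, had 4.85 ± 0.179 and 5.02 ± 0.0776 CPM per kb. Groups 12, 3 and 2 were the lowest in control samples, at 0.377 ± 0.0835, 0.239 ± 0.00839 and 0.824 ± 0.101 CPM per kb. In each of groups 9, 10 and 11 the Hoxa and Hoxc paralogs carried the level. Hoxd9 was tested, with 0.337 ± 0.0418 and 0.407 ± 0.0627 CPM per kb, and Hoxb9, Hoxd10 and Hoxd11 were not.

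In the comparison of cKO with control, 1 of the 25 tested Hox genes passed, Hoxa11, and it was higher in cKO. That is 4.0% of them, where 15.8% of all 22404 tested genes passed in either direction (9.38% higher and 6.46% lower in cKO) at a Benjamini-Hochberg threshold of 0.05 with edgeR's quasi-likelihood method. Unadjusted p-values were under 0.05 for 3 Hox genes (Hoxa11, Hoxb3 and Hoxc10), and DESeq2 called 0 of the 25. Log2 fold changes (cKO minus control throughout) were above 0 for 15 tested members and below 0 for 10, with a median of 0.01 beside a median of 0.00 over all genes tested. The interval of the difference bounds what these samples could hide. For 18 of the 25 genes the 95% interval lay within ±0.5 on the log2 scale, and the exceptions were Hoxa3, Hoxa6, Hoxb2, Hoxb3, Hoxb4, Hoxc12 and Hoxd9, which had low counts. Control and cKO samples did not overlap in CPM for 5 of the 25 (Hoxa11, Hoxa13 and Hoxd8 above, Hoxb3 and Hoxc10 below), or 20%, where 31.4% of all tested genes did not overlap.

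**Figure D2:**
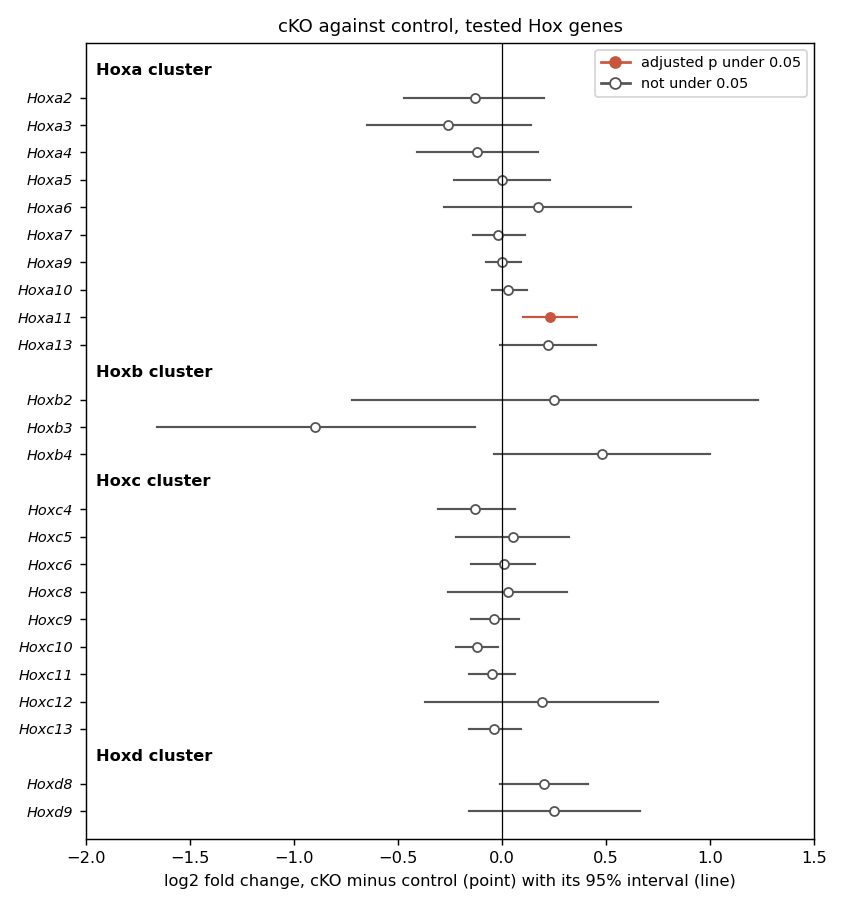
Log2 fold change of cKO over control for tested Hox genes, with the 95% interval as a line, grouped by cluster. Hoxa11 (filled point, 0.23) has an adjusted p under 0.05, and the widest intervals are those of Hoxb2, Hoxb3 and Hoxc12.

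Hoxa11, a determinant of the zeugopod, the middle segment of the limb, rose in cKO. It (ENSMUSG00000038210, GRCm38 chromosome 6, 52242106 to 52245810, - strand) had 426, 498 and 487 counts in control against 430, 557 and 529 in cKO, or 7.53, 7.86 and 7.93 CPM against 8.97, 9.42 and 9.48 CPM. Every cKO sample lay above every control sample. The means were 7.78 ± 0.213 and 9.29 ± 0.277 CPM (SD, n = 3 per group), with a log2 fold change of 0.23 (SE 0.06, 95% interval 0.10 to 0.36, edgeR quasi-likelihood adjusted p = 0.0175). The call was lost with DESeq2 (adjusted p = 0.0525) and without control replicate 1, control replicate 2 or cKO replicate 3 (adjusted p = 0.0776, 0.0573 and 0.0725), while the fold change stayed between 0.21 and 0.26 over 13 alternatives, whose adjusted p ran from 0.00671 to 0.0776. In such bulk samples, fewer cells of a type and less RNA per cell cannot be told apart.

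Hoxa11 shares 35.0% of its exon bases with Hoxa11os, an antisense transcript on the opposite strand. Hoxa11os had 147, 148 and 160 counts in control against 160, 163 and 167 in cKO, or 2.60, 2.34 and 2.61 CPM against 3.34, 2.76 and 2.99 CPM, with no overlap of the groups. Its log2 fold change was 0.24 (SE 0.11), close in size to that of Hoxa11, and it did not pass (edgeR quasi-likelihood adjusted p = 0.170). The strand setting of the counting is not given in the sources used here, so reads of this pair cannot be told apart. The next gene outward, Hoxa13, had 153, 185 and 144 counts in control against 143, 182 and 188 in cKO; its groups did not overlap in CPM, and it did not pass (log2 fold change 0.22, SE 0.11, adjusted p = 0.215). On the other side Hoxa10 and Hoxa9 had log2 fold changes of 0.03 (SE 0.04, 95% interval -0.05 to 0.12, adjusted p = 0.679) and 0.00 (SE 0.04, 95% interval -0.08 to 0.09, adjusted p = 0.963).

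**Figure D3:**
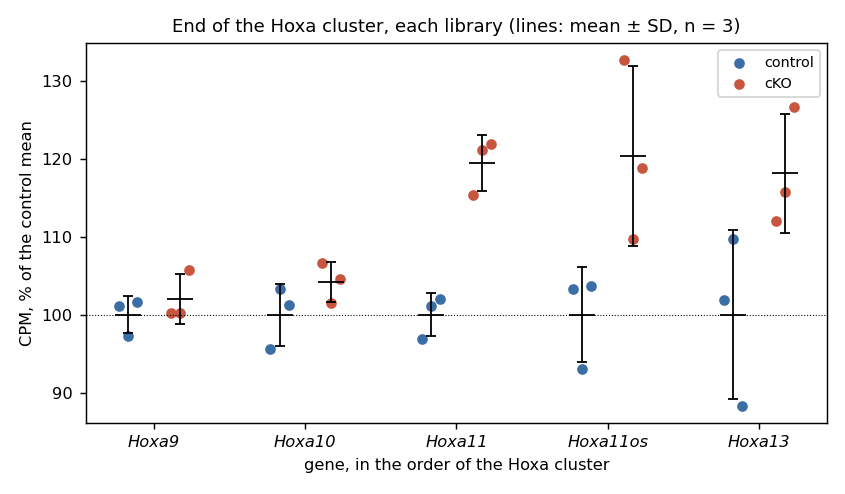
CPM of the last 4 Hoxa genes and of Hoxa11os in each library as a percentage of the control mean, with the mean and SD of each group (n = 3). Control and cKO points are apart for Hoxa11, Hoxa11os and Hoxa13 and overlap for Hoxa9 and Hoxa10.

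The other Hoxa genes did not pass in edgeR's quasi-likelihood test. Hoxa7 had a log2 fold change of -0.02 (SE 0.06, adjusted p = 0.894) and Hoxa5 of 0.00 (SE 0.11, adjusted p = 0.994). Hoxa4 was at -0.12 (SE 0.13, adjusted p = 0.631), Hoxa2 at -0.13 (SE 0.16, adjusted p = 0.658) and Hoxa6 at 0.17 (SE 0.21, adjusted p = 0.672). The groups of these 5 genes overlapped in CPM. Hoxa3 had the lowest value in the cluster, -0.26 (SE 0.18, adjusted p = 0.418), with 63, 62 and 65 counts in control against 33, 64 and 49 in cKO, and its groups overlapped. The median of the 11 Hoxa genes was 0.00. Their summed level was 114.5, 116.8 and 115.8 CPM in control and 119.99, 119.4 and 121.1 CPM in cKO, with a log2 ratio of 0.05. The groups did not overlap in these CPM on total counts. They did overlap on TMM effective library sizes, where the TMM factors were 0.991 to 0.992 in control and 1.003 to 1.016 in cKO. Several of these genes share exon bases with antisense transcripts, Hoxa3 25.4%, Hoxa7 20.4% and Hoxa4 16%, and Hoxa2 shares 15% with Gm28308 on the same strand.

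None of the 9 Hoxc genes passed with edgeR or with DESeq2, and 1 had an unadjusted p under 0.05. That gene was Hoxc10, with 1330, 1604 and 1451 counts in control against 1069, 1380 and 1241 in cKO, or 23.5, 25.3 and 23.6 CPM against 22.3, 23.3 and 22.2 CPM. Each cKO sample lay below each control sample. The log2 fold change was -0.12 (SE 0.05, 95% interval -0.22 to -0.02, edgeR quasi-likelihood adjusted p = 0.0929), and 8.7% of its exon bases are shared with Hoxc5 on the same strand. Hoxc11 was at -0.05 (SE 0.05, adjusted p = 0.590), Hoxc9 at -0.04 (SE 0.05, adjusted p = 0.745) and Hoxc13, a gene of hair and nail, at -0.04 (SE 0.06, adjusted p = 0.772). The groups of these 3 genes overlapped in CPM, as did those of the genes that follow. Hoxc4 had a log2 fold change of -0.13 (SE 0.09, adjusted p = 0.391), Hoxc6 of 0.01 (SE 0.07, adjusted p = 0.974), Hoxc8 of 0.03 (SE 0.13, adjusted p = 0.935), Hoxc5 of 0.05 (SE 0.13, adjusted p = 0.849) and Hoxc12 of 0.19 (SE 0.26, adjusted p = 0.713). The median of the cluster was -0.04, and its summed level was 83.7, 85.6 and 85.0 CPM in control and 81.8, 84.9 and 81.5 CPM in cKO, with overlap of the groups.

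Most of the Hoxb cluster was at the edge of detection in both genotypes. Hoxb13, the outermost gene and a factor of the tail end and prostate, had 0 counts in every library; 3 counts, the limit that a count of 0 allows, are 0.0474 to 0.0626 CPM here (counting error only). Hoxb1 had 0, 0 and 1 counts in control against 1, 0 and 1 in cKO, and Hoxb5 had 2, 1 and 0 counts and 1, 3 and 0 counts. Hoxb6 had 4, 1 and 0 counts in control against 8, 9 and 2 in cKO, Hoxb7 had 3, 8 and 1 and then 5, 3 and 5, Hoxb8 had 2, 2 and 2 and then 1, 4 and 0, and Hoxb9 had 4, 0 and 1 and then 3, 6 and 0. The groups overlapped for each of these genes. Summed over these 7 genes, the libraries held 15, 12 and 5 counts in control against 19, 25 and 8 in cKO, and cKO replicate 3 lay below control replicates 1 and 2 in CPM. Pooled by genotype this is 0.177 CPM (exact Poisson 95% interval 0.121 to 0.249) in control and 0.319 CPM (0.238 to 0.419) in cKO. These intervals cover counting error only and overlap between 0.238 and 0.249 CPM. Their overlap is not a test of the difference, which was not tested.

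At the head end 3 Hoxb genes could be tested, and 0 of the 3 passed with edgeR or DESeq2. Hoxb4, known for expanding blood stem cells, had 32, 31 and 23 counts in control against 31, 49 and 30 in cKO. Its groups overlapped in CPM, with a log2 fold change of 0.48 (SE 0.24, 95% interval -0.04 to 1.0, edgeR quasi-likelihood adjusted p = 0.225). Hoxb3 had 13, 15 and 17 counts in control against 4, 10 and 8 in cKO. It was lower in each cKO sample, at a log2 fold change of -0.90 (SE 0.36, 95% interval -1.66 to -0.13, adjusted p = 0.114), and 52.9% of its exon bases lie opposite Hoxb3os. Hoxb2 had 5, 12 and 15 counts and 7, 21 and 7 counts, with a log2 fold change of 0.25 (SE 0.46, adjusted p = 0.795) that became -0.40 without cKO replicate 2, and 27.3% of its exon bases lie opposite Hoxb3os. The median of the 3 genes, 0.25, was -0.40 without that library and -0.05 without control replicate 1, so its direction rests on single libraries.

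Hoxd genes were detected in the middle of the cluster. Hoxd8 had 169, 227 and 228 counts in control against 188, 238 and 229 in cKO, or 2.99, 3.58 and 3.71 CPM against 3.92, 4.02 and 4.10 CPM. Each cKO sample lay above each control sample, and the gene did not pass (log2 fold change 0.20, SE 0.10, 95% interval -0.01 to 0.41, edgeR quasi-likelihood adjusted p = 0.198). Hoxd9 had 36, 45 and 50 counts in control against 36, 60 and 47 in cKO, with a log2 fold change of 0.25 (SE 0.19, adjusted p = 0.452). By DESeq2 also 0 of these 2 genes passed, and 0 had an unadjusted p under 0.05. The limb genes of the 5′ end were low: Hoxd10 had 7, 4 and 2 counts in control against 2, 2 and 2 in cKO, Hoxd11 had 0, 1 and 4 and then 7, 0 and 2, Hoxd12 had 0, 3 and 0 and then 0, 0 and 1, and Hoxd13 had 3, 2 and 4 and then 2, 6 and 2. At the other end Hoxd1 had 0, 0 and 3 counts and then 2, 1 and 1, Hoxd3 had 1, 3 and 1 and then 3, 3 and 4, and Hoxd4 had 6, 10 and 6 and then 9, 17 and 7. Hoxd3 and Hoxd4 share 62.3% and 52.3% of their exon bases with genes on the same strand, each other included, so their counts are uncertain. The 7 untested Hoxd genes together had 0.331 CPM (exact Poisson 95% interval 0.253 to 0.426) in control and 0.448 CPM (0.351 to 0.563) in cKO, and the libraries of the groups overlapped. All 9 Hoxd genes summed to 3.93, 4.66 and 4.85 CPM in control and 5.19, 5.53 and 5.28 CPM in cKO. Those sums did not overlap between the groups, at a log2 ratio of 0.25, and the difference in the sum was not tested.

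**Figure D4:**
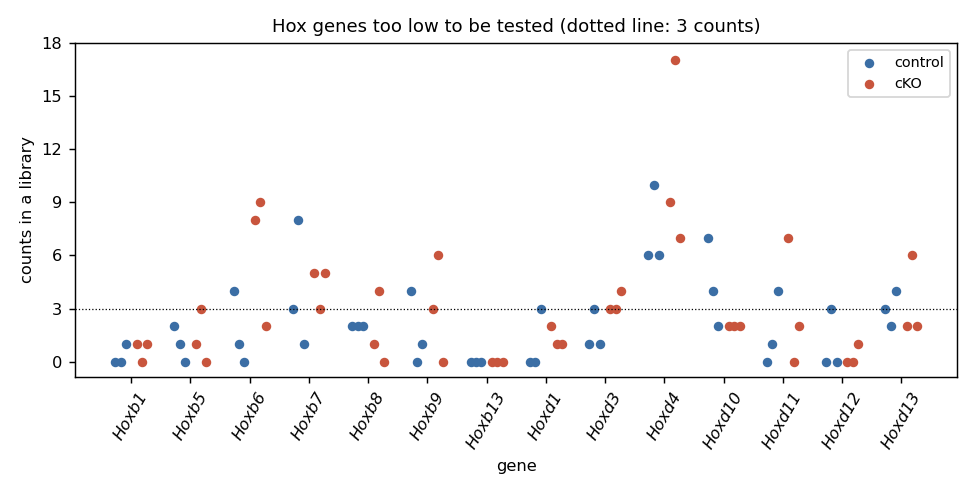
Counts of the 14 untested Hox genes in each library, with 3 counts as a dotted line. The highest value is 17 counts (Hoxd4 in cKO replicate 2), and Hoxb13 sits at 0 in all 6 libraries.

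Hoxa13 and Hoxd13 are paralogs with opposite status, the first tested and the second near 0, and their promoters are shown because both are rich in CpG, the dinucleotide whose unmethylated form helps to recruit Polycomb and MLL complexes. The lines give the 250 bases before the start from RefSeq on GRCm38.p6, 5′ to 3′ on the gene's strand, with each CG in capitals.
Hoxa13 (chr6:52260881-52261130, - strand): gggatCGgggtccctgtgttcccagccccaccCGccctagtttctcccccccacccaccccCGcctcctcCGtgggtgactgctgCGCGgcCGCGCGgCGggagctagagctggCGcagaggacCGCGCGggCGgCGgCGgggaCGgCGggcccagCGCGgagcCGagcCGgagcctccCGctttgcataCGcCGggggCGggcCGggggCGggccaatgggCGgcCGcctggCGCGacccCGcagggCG
Hoxd13 (chr2:74667975-74668224, + strand): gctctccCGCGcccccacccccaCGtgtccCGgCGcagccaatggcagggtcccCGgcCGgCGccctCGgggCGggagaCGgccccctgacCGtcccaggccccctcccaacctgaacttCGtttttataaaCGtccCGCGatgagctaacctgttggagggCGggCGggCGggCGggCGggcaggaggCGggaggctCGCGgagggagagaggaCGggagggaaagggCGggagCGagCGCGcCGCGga
In windows from 250 bases before to 50 bases after the start, Hoxa13 held 45 CG and Hoxd13 held 37, where the median of all 32851 windows was 7.0. Over the 24 windows of 22 Hox genes, those of tested genes held 4 to 45 CG (median 14.5) and those of untested genes 4 to 37 (median 16.5), with ranges that overlap. The TATA motif TATAAA, searched on both strands, was in the Hoxd13 window and not in the Hoxa13 window, and in 4 of the 24 Hox windows (16.7%) against 13.6% of all windows.

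Other annotated genes inside the clusters numbered 46, of which 15 were tested. None of the 15 passed with edgeR's quasi-likelihood test or with DESeq2, where 15.8% of all tested genes passed with edgeR. Of the 15, 1, Hoxa11os, had an unadjusted p under 0.05. Hotair, a long non-coding RNA between Hoxc11 and Hoxc12 known for its ties to Polycomb, had 198, 215 and 224 counts in control against 175, 200 and 174 in cKO (log2 fold change -0.08, SE 0.09, adjusted p = 0.641), with overlap of the groups in CPM. Hotairm1, a non-coding RNA of the Hoxa cluster, had 49, 51 and 34 counts in control against 28, 39 and 36 in cKO (log2 fold change -0.25, SE 0.22). Hoxaas2 had 192, 196 and 182 counts and 181, 208 and 168 counts (0.10, SE 0.11), and Hoxaas3 had 60, 49 and 47 counts and 29, 41 and 54 counts (-0.21, SE 0.22). Of the genes that share exon bases with a member, Hoxd3os1 had 21, 14 and 22 counts in control against 14, 26 and 11 in cKO, Hoxb3os 5, 10 and 9 and then 5, 11 and 8, 5730596B20Rik 20, 24 and 17 and then 16, 20 and 15, and Gm29430 7, 3 and 6 and then 3, 9 and 6. Gm28230, Haglr and Hoxb5os had at most 3 counts in any library, and Gm28308, Gm28309 and Mir196b had 0 in all 6.

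HOX proteins bind DNA together with TALE homeodomain cofactors of the PBX, MEIS and PKNOX families. All 9 genes of this list were tested, and 1 rose and 2 fell in cKO, where 15.8% of all tested genes passed in either direction. DESeq2 also called 3, and the median log2 fold change of the list was -0.01. Meis2 had 165, 192 and 248 counts in control against 217, 397 and 285 in cKO, higher in each cKO sample in CPM, with a log2 fold change of 0.69 (SE 0.14, 95% interval 0.39 to 0.99, edgeR quasi-likelihood adjusted p = 0.00314). Pknox2 fell, from 3012, 3244 and 3211 counts to 2174, 2859 and 2555, with a log2 fold change of -0.19 (SE 0.04, adjusted p = 0.00177). Pknox1 fell by 0.15 on the log2 scale (SE 0.04, adjusted p = 0.00986), and its adjusted p was 0.0502 and 0.0633 without control replicates 2 and 3. Pbx2 was the most expressed of the list at 10.7 CPM per kb over all samples, with a log2 fold change of 0.06 (95% interval -0.01 to 0.14). Pbx3, Pbx4, Meis1 and Meis3 did not pass.

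None of the 19 tested upstream regulators passed with edgeR's quasi-likelihood test or with DESeq2, where 15.8% of all tested genes passed with edgeR. Of the 19, 5 had unadjusted p-values under 0.05, and the median log2 fold change of the 19 was -0.06. The list holds Polycomb and trithorax genes, H3K27 demethylases, the Cdx factors and the retinoic acid receptors. Bmi1, a Polycomb gene and the most expressed at 21.1 CPM per kb over all samples, had a log2 fold change of -0.06 (95% interval -0.12 to 0.01). Kmt2a and Kmt2b, which encode the H3K4 methyltransferases MLL1 and MLL2, had log2 fold changes of -0.09 (95% interval -0.19 to 0.01, adjusted p = 0.242) and -0.03 (95% interval -0.13 to 0.07, adjusted p = 0.712). Cdx1, Cdx2 and Cdx4, activators of Hox genes in the embryo, had no more than 3 counts in any library.

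**Figure D5:**
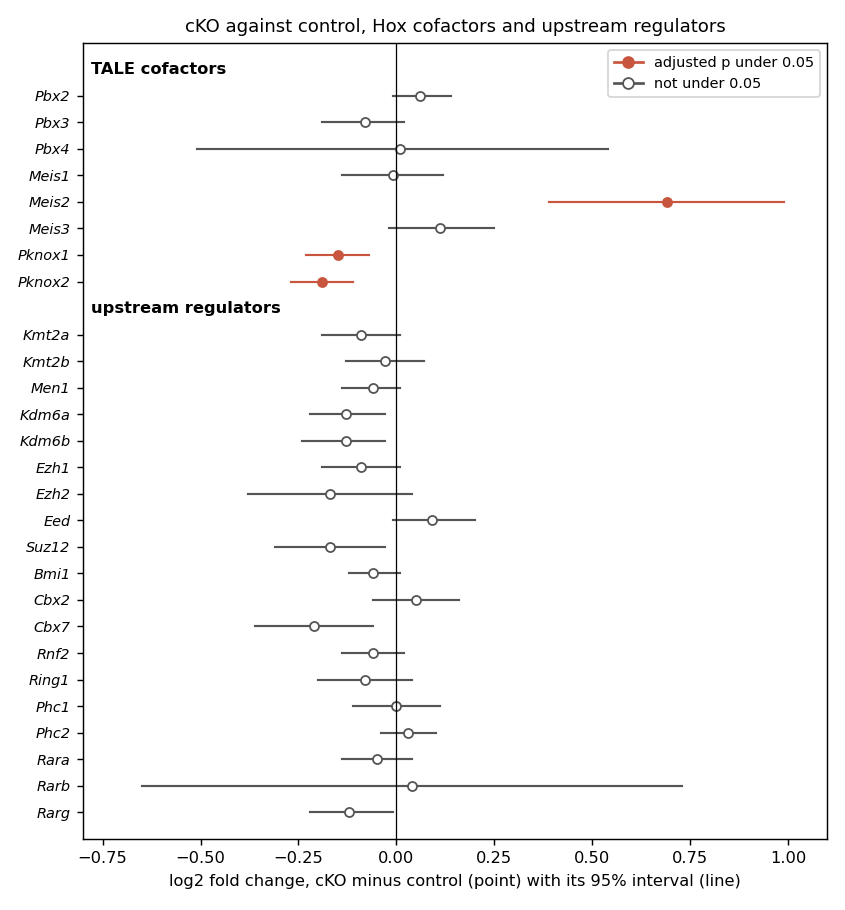
Log2 fold change of cKO over control for TALE cofactors and the 19 tested upstream regulators, with the 95% interval as a line. Filled points (Meis2 above 0, Pknox1 and Pknox2 below) have an adjusted p under 0.05.

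Of 21 genes that flank the clusters, 17 were tested, and 1 rose and 2 fell, a share near the 15.8% of all tested genes. DESeq2 called 2 of the 17. Snx11, 399 kb from Hoxb, had a log2 fold change of 0.17 (SE 0.05, edgeR quasi-likelihood adjusted p = 0.0214), a call lost with DESeq2 (adjusted p = 0.0554) and without control replicate 1, control replicate 3 or cKO replicate 3 (adjusted p = 0.0721, 0.0957 and 0.0996). Cbx5, which encodes heterochromatin protein HP1 alpha, lies 155 kb from Hoxc and was the most expressed of the list at 77.6 CPM per kb. It fell by 0.17 on the log2 scale (SE 0.03, adjusted p = 0.000922). Nfe2l2, the regulator of the oxidative stress response, lies 910 kb from Hoxd and fell by 0.18 (SE 0.03, adjusted p = 0.000685). Evx1 and Evx2, the homeobox genes next to Hoxa13 and Hoxd13, had no more than 3 counts in any library, at distances of 52.6 and 8.75 kb from the clusters.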

How the data were processed

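Satellite cell RNA was depleted of ribosomal RNA and sequenced as single-end reads of 75 bp with a kit that marks strand. The authors' alignment, per the labels, used Bowtie2 2.3.4.2 and mm10, without splitting reads over introns, and their counting used featureCounts 1.6.3. The deposited values are raw counts, 1 per gene and sample; the treatment of strand and of reads matching several genes is not given in the sources used here. The authors' other tables hold their normalized values and their own comparison, and were not used. All 55536 identifiers matched GENCODE M21 (same build), which gave symbols, exon lengths and overlaps.

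Counts were fitted over all genes in edgeR 4.0.16 (filterByExpr, TMM, quasi-likelihood test, genotype only) in R 4.3.3, with Benjamini-Hochberg adjustment over 22404 genes and a threshold of 0.05. The common biological coefficient of variation was 3.92%. This is edgeR's single estimate over genes of the variation beyond counting noise, and single genes can vary more. CPM used total counts, and levels of different genes were compared per kb of union exon length. Intervals at 95% came from the fit's t distribution. Genes with no more than 3 counts in each library were treated as at a floor. On counts simulated for cKO against control, the test recovered 95% of changed genes at a log2 fold of 0.5 and 100% at 1 among 22360 genes tested, with 5.8% false calls. The changed genes were drawn from genes with a mean of at least 100 counts. Recovery for Hox genes with lower counts was therefore not measured. Alternatives were DESeq2 1.42.0, a likelihood-ratio test, other scalings and filters, a replicate block and leaving out each sample; for genes outside the Hox clusters these were added after the data were seen. Replicate pairs differed beyond sampling noise, so each library was kept as its own sample.

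The members and gene lists (Hox clusters, TALE cofactors, upstream regulators, flanking genes, and markers of satellite cells, fibroblasts, macrophages, endothelium, smooth muscle and pericytes, and Schwann cells and glia) were chosen with earlier results of these data known. The text names the members, every gene of the cofactor, regulator and flanking lists that passed together with the most expressed one, Hira, and genes inside the clusters that share exon bases with a member. Kmt2a, Kmt2b, the Cdx and Evx genes, Hotair, and the genes of the closing section were chosen after their values were seen. Some items counted in the totals are not reported here by name. Python 3.11.15 made summaries and plots.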

Additional observations from a re-analysis of the deposited data

How the results depend on the processing

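The count of Hox genes called was 1 or 0: it was 0 with DESeq2 and 0 to 1 over the fits that leave out 1 sample, with Hoxa11 the gene called wherever the count was 1. Between 2505 and 4036 genes of all passed over the same alternatives. The number of Hox genes that passed the filter was 20 with at least 50 counts in 3 samples, 20 with at least 1 CPM in 3 samples and 25 to 26 with 1 sample left out. The median log2 fold change of the tested Hoxb genes ran from -0.40 to 0.52 with 1 sample left out. The log2 ratio of the summed Hoxa levels, 0.05, was 0.03 with CPM on TMM effective library sizes and 0.08 with the 8 members that share no exon base on the same strand. The direction turned in 19 instances among the genes given here, all for genes that never passed and mostly for values near 0. With 1 sample left out, log2 fold changes ran from -0.07 to 0.09 for Hoxa5, -0.05 to 0.01 for Hoxa7, -0.03 to 0.02 for Hoxa9, -0.40 to 0.56 for Hoxb2, -0.10 to 0.16 for Hoxc5, -0.06 to 0.05 for Hoxc6 and -0.13 to 0.10 for Hoxc8. Total counts alone turned Hoxa7 to 0.01, RLE size factors turned Hoxa5 to -0.00, and testing without the filter turned Hoxa5 and Hoxa9 to -0.00. The cause of these changes was not tested.

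Replicate numbers are shared between the groups. Deviations of same-numbered samples from their group means correlated at -0.0129, -0.0046 and -0.0145 over the tested genes. Counting noise in each gene lowers such correlations, so they cannot show whether same-numbered samples were paired. The sources do not state a pairing for these libraries, though the study used a paired t-test for its RT-qPCR of satellite cells. With a replicate block, 3152 genes were called in all and 1 Hox gene, Hoxa11, at an adjusted p of 0.0305. Depth limits the 14 untested Hox genes, for which no test was made.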

Other observations

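Pitx1 and Tbx4, transcription factor genes of hindlimb identity, and Tbx5, their forelimb counterpart, were looked at after the Hox values were seen, because they too report limb position. Tbx4 had 701, 775 and 858 counts in control against 727, 846 and 862 in cKO. Tbx5 had 1 count in control replicate 2 and 0 in every other library. Pitx1 had 24, 24 and 11 counts in control against 38, 59 and 52 in cKO, with no overlap of the groups in CPM and a log2 fold change of 1.45 (SE 0.26, 95% interval 0.89 to 2.02, edgeR quasi-likelihood adjusted p = 0.00128). Tbx4 had a log2 fold change of 0.19 (SE 0.06, adjusted p = 0.0494), a call lost in 6 of its alternatives, DESeq2 among them (adjusted p = 0.0773).

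The most counted gene within the span of the Hoxb cluster was Gm11539, a processed pseudogene at chromosome 11, 96248633 to 96249189 of GRCm38, with 1416 to 1698 counts per library. All 10 Hoxb genes together had 1.08 ± 0.089 CPM in control, against 26.2 ± 0.829 CPM for Gm11539 (SD, n = 3). Its log2 fold change was 0.02 (SE 0.06, edgeR quasi-likelihood adjusted p = 0.901). Reads were aligned without splitting over introns, and the treatment of reads matching several genes is not given. Whether the counts of this pseudogene arose at this locus was not tested.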
